A study of Saccharomyces cerevisiae with 8 samples.

Results

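The genes described here encode the machinery that copies chromosomal DNA in budding yeast, Saccharomyces cerevisiae. They are the 44 genes for the replicative polymerases and primase, replication protein A (RPA), the clamp and its loaders, the origin recognition complex (ORC), the MCM helicase, the GINS complex and accessory factors. They were taken by gene symbol from a list, out of 5449 S. cerevisiae genes on the array, and each was read by 1 probe set that exceeded background on all 8 arrays. Total RNA was measured on Affymetrix Yeast 2.0 arrays, with 1 array for each of 4 separate CDC34tm cultures and 4 separate WT cultures. The CDC34tm strain (RRC85) is MATα and carries the CDC34tm allele marked with the nourseothricin resistance gene NatR, and the labels also list a partly disrupted 3' region of PST1 among the variables. The WT strain (DBY2059) is MATα and isogenic, and the design text gives it the leu2-3, 112 allele. The source names list that allele among the variables of every sample without saying which strain carries it, and a difference between the strains may come from any of these changes. Each strain is a single line, grown at 30 °C for 3 to 4 doublings from stationary phase in synthetic medium with 2% dextrose, 0.25% glutamine and 25.2 mg/L leucine.

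Replication starts at origins bound by ORC. In G1, Cdc6 and Cdt1 help ORC load the MCM helicase as an inactive ring, and at the start of S phase the Dbf4-dependent kinase and cyclin-dependent kinase switch it on with Cdc45 and GINS. Many genes of the fork, though not all genes for origin licensing, are transcribed in late G1 by the factor MBF. Cdc34 is the ubiquitin-conjugating enzyme of the SCF ligases, whose best known target in budding yeast is Sic1, an inhibitor that has to be degraded before S phase can begin. The comparison asks how far transcripts of the replication machinery differ in the CDC34tm strain.

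The arrays were alike in level, with a median S. cerevisiae signal of 1162 to 1244 and a background, the 95th percentile of S. pombe probe sets, of 12.3 to 14.6. CDC34 itself did not pass the test (log2 fold change 0.01 with a 95% interval of -0.16 to 0.19, limma adjusted p = 0.899). The mating type of the labels was borne out in level: the 4 α-specific genes MF(ALPHA)1, MF(ALPHA)2, STE3 and SAG1 summed to 34066 to 37176 in CDC34tm and 35824 to 45311 in WT, and 6 a-specific genes summed to 771 to 899 in CDC34tm and 670.4 to 845 in WT. Over all tested probe sets, log2 signals of CDC34tm arrays correlated at 0.993 to 0.997, and those of WT arrays at 0.980 to 0.995. The WT cultures fell into pairs: WT replicates 1 and 4 correlated at 0.995 and WT replicates 2 and 3 at 0.993, but arrays from different pairs at 0.980 to 0.981. Values for the replication genes are therefore given with all WT arrays and without either pair.

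Of the replication genes that differed between the strains, most were higher in CDC34tm. Of the 44, 11 rose and 2 fell in CDC34tm (limma on log2(signal + 16), Benjamini-Hochberg adjusted p under 0.05), and 31 did not pass the test. Over all 5437 tested probe sets, 38.6% passed, 18.9% as higher and 19.7% as lower. For the replication genes the shares were 29.5% in all, 25.0% higher and 4.55% lower, so the share of higher genes was near that of the array and the share of lower genes below it. Their median log2 fold change was 0.12, against 0.00 over all tested genes, and 29 of 44 lay above 0. The genes that rose were RFA3, ORC3, CDC45, CDC6, POL30, CTF18, DPB3, PSF2, ORC6, POL3 and ORC4, by 0.24 to 0.82 on the log2 scale, and MCM3 and ORC2 fell. Every complex with several members here held at least 1 gene on either side of 0, other than polymerase α-primase and RPA, whose members all lay above 0. In RNA from whole cultures, a change in the share of cells in each phase of the cell cycle and a change in RNA per cell cannot be told apart. When each array was centred on its median, the split over all probe sets moved to 1327 higher and 889 lower, against 1028 and 1072, and that of the replication genes to 15 and 2. Without CDC34tm replicate 1, 6 of the 11 rises were called, and 7 without CDC34tm replicate 4. Over all tested probe sets, 775 and 756 were called higher in those fits, against 1028 with all arrays. The median of the replication genes was 0.057 without WT replicate 3.

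**Figure D1:**
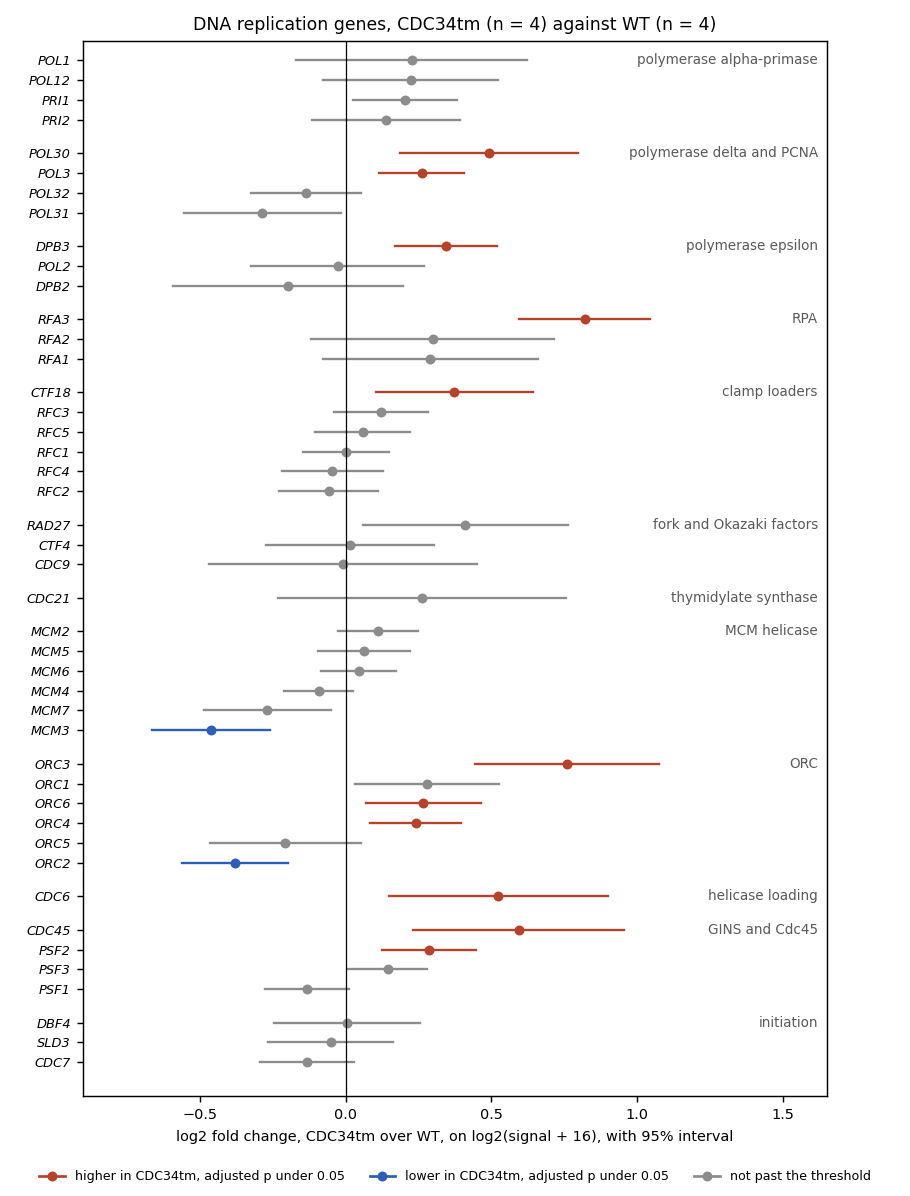
Log2 fold change of each of the 44 replication genes, CDC34tm (4 arrays) over WT (4 arrays), on the log2(signal + 16) scale with its 95% interval from limma, grouped by complex. RFA3 at 0.82 and ORC3 at 0.76 lie farthest to the right, and MCM3 at -0.46 and ORC2 at -0.38 farthest to the left.

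The subunits of ORC, which marks origins and loads the helicase, moved in opposite directions. ORC3 had signals of 1298, 1417, 1129 and 1215 on CDC34tm replicates 1 to 4, against 633, 909, 868 and 595 on WT replicates 1 to 4. Every CDC34tm culture was above every WT culture, the mean being 1265 ± 123 in CDC34tm, against 751 ± 160.2 in WT (± SD over 4 cultures each), a 1.69-fold rise (log2 fold change 0.76 with an interval of 0.44 to 1.08, limma adjusted p = 0.00281). The 2 lower WT values were those of replicates 1 and 4. ORC2 read 1531, 1403, 1701 and 1539.7 in CDC34tm, against 1935, 2259, 2001 and 1868 in WT, with the WT replicates in the same order. Its groups did not overlap either, and it fell in CDC34tm (log2 fold change -0.38, limma adjusted p = 0.00538). ORC4 read 778, 705, 742 and 739 in CDC34tm, against 609, 659.7, 649 and 583 in WT, again without overlap, and rose by 0.24 on the log2 scale (limma adjusted p = 0.0227). ORC6, whose product binds the rest of ORC and has a part in helicase loading, rose by 0.27 (limma adjusted p = 0.0381). The largest subunit gene, ORC1, had a log2 fold change of 0.28 and did not pass (limma adjusted p = 0.0708). ORC5 read 825, 855, 812 and 776 in CDC34tm, against 892, 1224, 896 and 815 in WT. WT replicate 2 was highest and WT replicate 4 lay within the CDC34tm range, and it did not pass (log2 fold change -0.21 with an interval of -0.47 to 0.051). ORC4 and ORC6 lost their calls without CDC34tm replicate 1, 3 or 4 or without WT replicate 1 or 4 (limma adjusted p up to 0.0708 for ORC4 and 0.110 for ORC6).

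CDC6, the loading factor that joins ORC in G1 and is itself an SCF target, rose 1.44-fold. It read 645, 666, 599 and 677 in CDC34tm, against 373, 506, 619 and 334 in WT. WT replicate 3 lay inside the CDC34tm range, WT replicate 2 below it and WT replicates 1 and 4 lowest. The mean was 647 ± 34.5 in CDC34tm, against 458 ± 130.4 in WT (± SD over 4 cultures each), with a log2 fold change of 0.52 (95% interval 0.15 to 0.90, limma adjusted p = 0.0330). The call was lost without any 1 of the CDC34tm arrays and without WT replicate 1 or 4 (limma adjusted p from 0.0519 to 0.0801), and kept without WT replicate 2 or 3.

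Of the 6 genes of the MCM helicase, the ring that unwinds the template, MCM3 alone passed with all arrays. It read 1579.6, 1273, 1594 and 1538 in CDC34tm, against 2085, 1906, 2301 and 1968 in WT. The groups did not overlap, and it fell 1.38-fold (log2 fold change -0.46 with an interval of -0.66 to -0.26, limma adjusted p = 0.00348). MCM7 had a log2 fold change of -0.27 and missed the threshold (limma adjusted p = 0.0518), passing it without WT replicate 1 or 4. MCM6 read 1060.2, 1041, 1069 and 1048 in CDC34tm, against 994, 1017, 1022 and 1059 in WT. The CDC34tm cultures lay close together, and WT replicate 4 lay within their range. Its log2 fold change was 0.044 with a 95% interval of -0.084 to 0.17, and MCM2, MCM4 and MCM5 had 0.11, -0.092 and 0.063. The intervals of MCM2, MCM4, MCM5 and MCM6 all lay within -0.21 to 0.25 on the log2 scale. MCM4 was lower in every CDC34tm culture than in any WT culture, and MCM2 higher in every one, but neither passed.

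Of the 4 genes for GINS and Cdc45 among the 44, 2 rose. CDC45, which joins MCM and GINS in the working helicase, read 709.7, 572, 633 and 588 in CDC34tm, against 522, 336, 316 and 496 in WT. All CDC34tm cultures were above all WT cultures, and it rose 1.51-fold (log2 fold change 0.59 with an interval of 0.23 to 0.96, limma adjusted p = 0.0169). Its call was lost without CDC34tm replicate 1 (limma adjusted p = 0.0522). Among the GINS genes, PSF2 read 793, 862, 779 and 810.0 in CDC34tm, against 706, 646, 689 and 612 in WT and rose by 0.29 on the log2 scale (limma adjusted p = 0.0120). PSF1 read 870.5, 828, 848 and 849 in CDC34tm, against 969, 985, 884 and 894 in WT. It did not pass (log2 fold change -0.13 with an interval of -0.28 to 0.013), although its groups did not overlap, and neither did PSF3 (0.14, limma adjusted p = 0.0855). The GINS gene SLD5, which is not among the 44, had 0.16 and did not pass (limma adjusted p = 0.0608). Of 44 replication genes, 13 had every CDC34tm signal above every WT signal and 4 every one below, 17 without overlap in all, where 19.1%, 20.5% and 39.5% of all tested probe sets did.

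None of the genes for the kinase step passed. DBF4, the regulatory subunit of the Cdc7 kinase, is the gene next to CDC34 in the RefSeq gene order. It read 687, 611, 651 and 625 in CDC34tm, against 499, 712, 689 and 688 in WT. WT replicate 1 was the low value, the other WT arrays lay just above the CDC34tm range, and the means were 643 ± 33.4 in CDC34tm, against 647 ± 99.0 in WT (± SD over 4 cultures each). The log2 fold change was 0.00 with an interval of -0.25 to 0.25. CDC7, the kinase subunit, had a log2 fold change of -0.13 (95% interval -0.30 to 0.028), and SLD3, which brings Cdc45 to origins, -0.052 (95% interval -0.27 to 0.16).

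Of the polymerase and primase subunit genes among the 44, POL3 and DPB3 rose and the others did not pass. POL3, the catalytic subunit of polymerase δ, which extends the lagging strand, read 1276, 1203, 1156 and 1252 in CDC34tm, against 1029, 985, 971 and 1085 in WT. It rose without overlap by 0.26 on the log2 scale (95% interval 0.11 to 0.41, limma adjusted p = 0.0117). The other polymerase δ subunit genes had negative values, POL31 -0.29 (limma adjusted p = 0.0852) and POL32 -0.14, and did not pass. POL32 read 1069, 1174, 987 and 927 in CDC34tm, against 1177, 1089.5, 1213 and 1087 in WT. In polymerase ε, the leading-strand enzyme, the gene of the small histone-fold subunit DPB3 read 1253, 1297, 1266 and 1168 in CDC34tm, against 1081, 920.3, 894 and 1028 in WT. All CDC34tm cultures were higher, a 1.27-fold rise (log2 fold change 0.34 with an interval of 0.17 to 0.52, limma adjusted p = 0.00725). POL2, the catalytic subunit, read 1344, 1075, 1362 and 1368 in CDC34tm, against 1539.6, 1196, 1047 and 1508 in WT. The CDC34tm range lay inside that of WT (log2 fold change -0.028 with an interval of -0.33 to 0.27), and DPB2, an essential non-catalytic subunit, had -0.20 with a wide interval of -0.59 to 0.20. The α-primase genes, which lay down the primers, were all above 0 but none passed: POL1 0.23, POL12 0.22, PRI1 0.20 and PRI2 0.14. PRI2 read 1049.6, 1023, 946 and 997 in CDC34tm, against 1116, 829, 756 and 978 in WT, with WT replicate 1 above every CDC34tm culture and WT replicates 2 and 3 below them all.

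RFA3 showed the largest difference of the 44 genes and the smallest adjusted p. It encodes the small subunit of RPA, the complex that coats single-stranded DNA, and read 3994, 4276, 3671 and 3965 on CDC34tm replicates 1 to 4, against 2517, 2195, 1831 and 2497 on WT replicates 1 to 4. The groups were far apart, with a mean of 3976 ± 247 in CDC34tm, against 2260.2 ± 322 in WT (± SD over 4 cultures each), and the rise was 1.77-fold (log2 fold change 0.82 with an interval of 0.60 to 1.04, limma adjusted p = 3.14e-04). The genes for the other RPA subunits had positive values that did not pass, RFA1 0.29 (limma adjusted p = 0.188) and RFA2 0.30 (limma adjusted p = 0.231). RFA2 read 2841, 2631, 2973 and 2748 in CDC34tm, against 3044, 1804, 1649 and 2927 in WT. WT replicate 1 was above the CDC34tm cultures, WT replicate 4 among them, and WT replicates 2 and 3 well below.

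Of the sliding clamp and its loaders, the clamp gene and the subunit of an alternative loader rose. POL30, which encodes the clamp PCNA, read 4483, 4115, 4529 and 4496 in CDC34tm, against 3871, 2891, 2349 and 3625 in WT. No WT culture reached the CDC34tm range, and the rise was 1.41-fold (log2 fold change 0.49 with an interval of 0.19 to 0.80, limma adjusted p = 0.0179). CTF18, of the loader that acts in sister chromatid cohesion, read 633, 629.7, 551 and 596 in CDC34tm, against 547, 479, 357 and 482 in WT, a rise of 0.37 on the log2 scale (95% interval 0.10 to 0.64, limma adjusted p = 0.0346). The CTF18 call was lost without CDC34tm replicate 1, 2 or 4 or without WT replicate 4 (limma adjusted p from 0.0512 to 0.0873). The genes of the main clamp loader, RFC1 to RFC5, stayed within -0.06 to 0.12 on the log2 scale and none passed. RFC1 read 1515, 1439, 1509 and 1408 in CDC34tm, against 1404, 1533, 1567 and 1374 in WT, with interleaved groups and a 95% interval of -0.15 to 0.15 around 0.00.

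CDC9 and CDC21 had the largest ratio of the highest to the lowest WT signal among the 44 genes. CDC9, the DNA ligase that seals the lagging strand, read 833, 822, 844 and 844 in CDC34tm, against 1078, 692, 561 and 1195 in WT. The CDC34tm cultures were almost equal, WT replicates 1 and 4 above them and WT replicates 2 and 3 below (log2 fold change -0.010 with an interval of -0.47 to 0.45). RAD27, the flap endonuclease, had a log2 fold change of 0.41 with no overlap between the strains and missed the threshold (limma adjusted p = 0.0639), passing it without WT replicate 1 or 4. CTF4, which ties polymerase α to the helicase, had 0.014. CDC21, the thymidylate synthase that supplies a DNA precursor, read 1131, 950.3, 1136 and 1009.5 in CDC34tm, against 1253, 687, 588 and 1163 in WT. WT replicates 1 and 4 were again above all CDC34tm cultures and WT replicates 2 and 3 below them, and its log2 fold change of 0.26 had a 95% interval of -0.23 to 0.75.

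**Figure D2:**
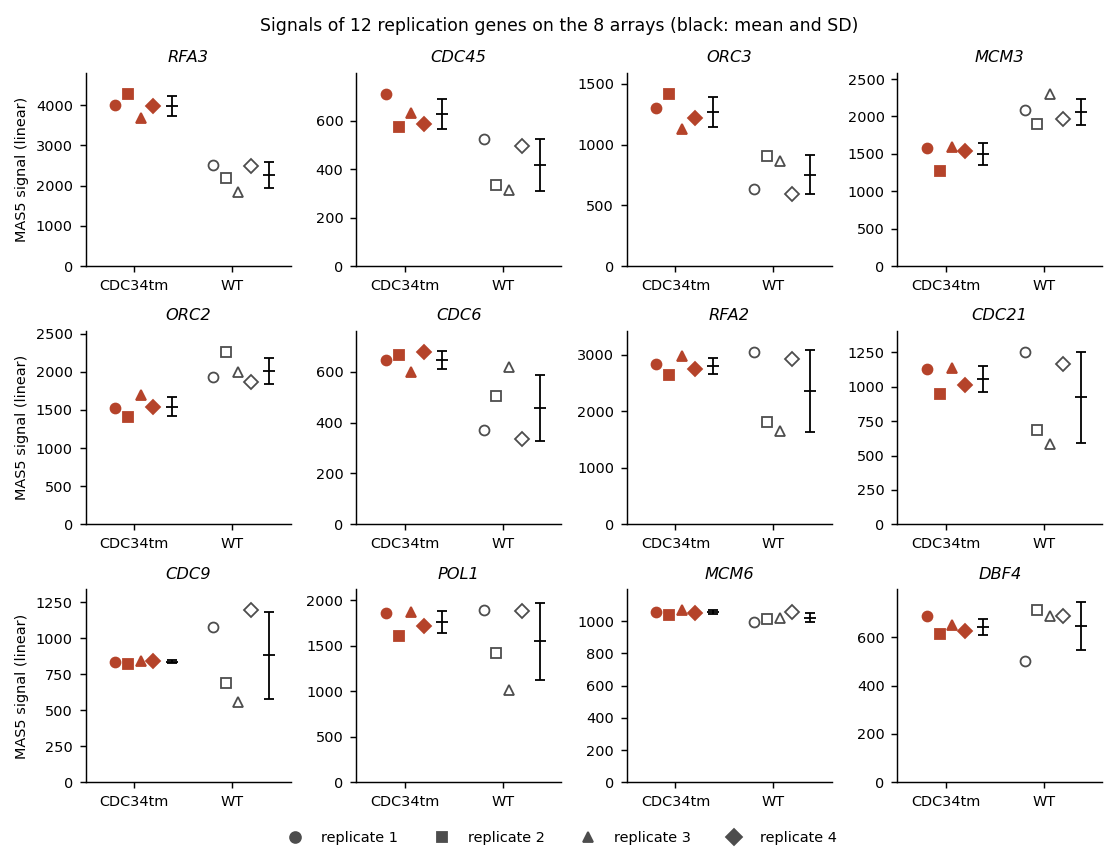
MAS5 signals on a linear scale for 12 replication genes, chosen after their values were seen, with 1 point per culture (filled for CDC34tm, open for WT, the shape giving the replicate) and the mean with SD in black. RFA3, CDC45 and ORC3 are higher and MCM3 and ORC2 lower in all CDC34tm cultures, whereas in RFA2, CDC21, CDC9 and POL1 WT replicates 1 and 4 reach or pass the CDC34tm cultures and WT replicates 2 and 3 lie below.

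The WT cultures differed in these genes more than the CDC34tm cultures did. The median SD of log2 values of a replication gene was 0.0734 in CDC34tm and 0.198 in WT, against 0.0885 and 0.131 over all tested probe sets. The SD was larger in WT for 37 of 44 genes (84.1%) and for 68.8% of all tested probe sets. In CDC9 and CDC21 the highest WT culture was 2.13-fold above the lowest, while the CDC34tm cultures spanned 1.03-fold and 1.20-fold.

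The order of the WT cultures differed between complexes, and between subunit genes of some. WT replicates 1 and 4 held the highest pair of WT signals in 20 of 44 genes (45.5%), against 25.4% of all tested probe sets. These included all 3 RPA genes, the 3 polymerase ε genes among the 44, CDC9, RAD27 and CTF4, 3 of 4 α-primase genes, POL3, POL31, POL30, CDC21, CDC45 and CTF18. WT replicates 2 and 3 held the highest pair in 11 of 44 (25.0%), against 35.1% of all tested probe sets, and these included all 6 ORC genes and CDC6, MCM7, SLD3, DBF4 and RFC1. For ORC5 and DBF4 this rested on near ties. ORC5 read 896 on WT replicate 3 against 892 on WT replicate 1, and DBF4 689 on WT replicate 3 against 688 on WT replicate 4. In 5 of 6 MCM genes the order was another. Outside the 44, the polymerase ε gene DPB4 read 2190, 2324, 2300 and 2298 on WT replicates 1 to 4. WT replicate 1 was lowest there, and WT replicates 2 and 3 were highest by little. CTF8 and DCC1 also had WT replicates 2 and 3 highest, CTF8 with 651 on WT replicate 2 against 641 on WT replicate 4. CTF18 of the same loader was counted with WT replicates 1 and 4 highest by a near tie. It read 482 on WT replicate 4 against 479 on WT replicate 2. Another near tie was RFC3, with 1496 on WT replicate 4 against 1487 on WT replicate 3. In 9 genes, POL1, POL12, PRI2, DPB2, RFA1, RFA2, CTF4, CDC9 and CDC21, WT replicates 1 and 4 both reached the CDC34tm range or passed it while WT replicates 2 and 3 stayed below it. That is 20.5% of the replication genes, against 3.64% of all tested probe sets. These groupings were read from the arrays after the values were seen, and no test was made of them.

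Heat shock genes moved with the same WT cultures. All 22 of a heat shock list had WT replicates 1 and 4 as the highest pair of WT signals. As a median over the list relative to each gene's CDC34tm mean, they stood at 0.90, 0.30, 0.29 and 0.97 on the log2 scale on WT replicates 1 to 4. On the same measure the RPA genes stood at 0.07, -0.63, -0.76 and -0.01, the α-primase genes at 0.12, -0.33, -0.45 and -0.05, and the ORC genes at -0.30, -0.10, -0.15 and -0.36. The median over all 44 genes was 0.00, -0.17, -0.18 and -0.05. The part of the heat shock difference in these results was not tested.

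**Figure D3:**
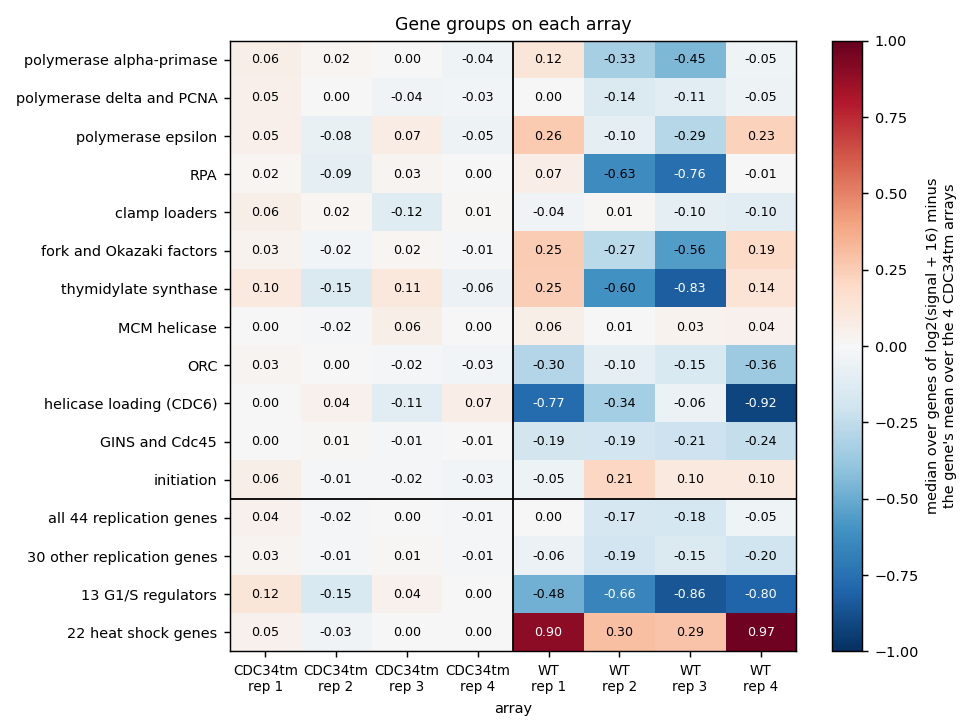
Median over the genes of each group of log2(signal + 16) minus the gene's mean over the 4 CDC34tm arrays, for each array (columns), with the complexes above the line and whole lists below it. On WT replicates 2 and 3 the RPA genes stand at -0.63 and -0.76 and CDC21 at -0.60 and -0.83, on WT replicates 1 and 4 CDC6 stands at -0.77 and -0.92, and the heat shock genes are highest on WT replicates 1 and 4.

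Counts and fold changes were recomputed against either pair of WT arrays, comparisons that share all 4 CDC34tm arrays. Against WT replicates 2 and 3, 18 of 44 replication genes were called higher and 4 lower (median log2 fold change 0.18), where 17.9% and 20.9% of all tested probe sets were. Against WT replicates 1 and 4, 11 were called higher and 5 lower (median 0.035), where 25.5% and 22.5% were. These 11 were the rises found with all arrays, except that CTF18 lost its call and ORC1 gained one. Against WT replicates 2 and 3, ORC4, ORC6 and CDC6 lost their calls as higher. The pairs were known from the signals of these arrays, so these values are given as a description. Of the RPA genes, RFA2 had 0.69 against WT replicates 2 and 3 and -0.094 against WT replicates 1 and 4, and RFA1 0.61 and -0.031. RFA3 kept a rise against either, of 0.98 and 0.66. POL30 and CDC45 were also higher against either pair, POL30 by 0.75 and 0.23 and CDC45 by 0.90 and 0.28. CDC9 changed sign, with 0.41 against WT replicates 2 and 3 and -0.43 against WT replicates 1 and 4, CDC21 had 0.71 and -0.19, and DPB2 0.17 and -0.56. All 4 α-primase genes passed against WT replicates 2 and 3 and none against WT replicates 1 and 4. The origin genes ran the other way: ORC3 had 0.50 and 1.02, ORC1 0.092 and 0.46, and CDC6 0.20, which did not pass, and 0.84. MCM3 had -0.49 and -0.44, and PSF2 0.28 and 0.30, so the choice of WT pair made little difference there.

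**Figure D4:**
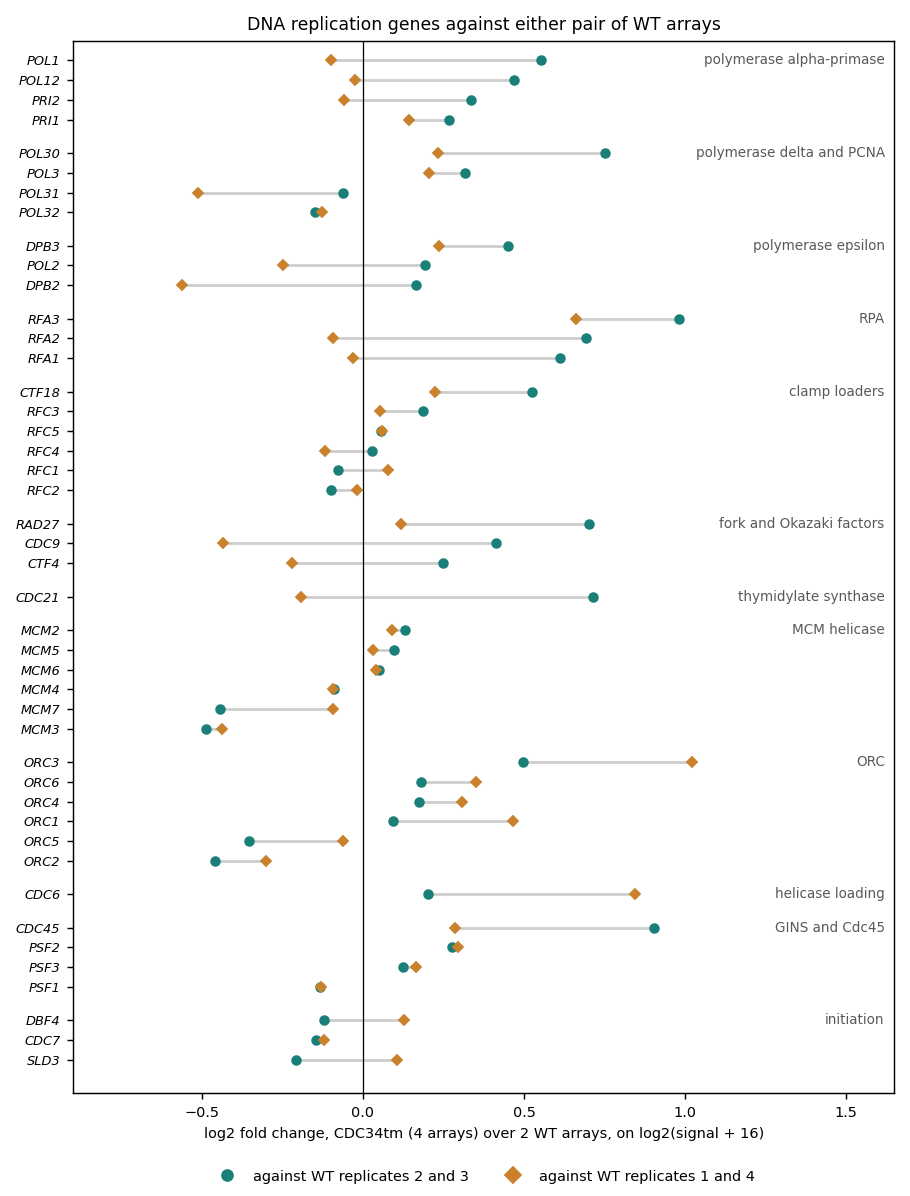
Log2 fold change of each replication gene on the log2(signal + 16) scale, CDC34tm (4 arrays) over WT replicates 2 and 3 (circles) and over WT replicates 1 and 4 (diamonds). For genes such as RFA2, POL1, CDC21 and CDC9 the circle lies to the right, at 0.71 in CDC21, and the diamond below 0, while for the ORC genes and CDC6 the diamond lies to the right.

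Other genes of the pathway were read from the same fit. On a list of 30 other replication genes, 9 rose and 2 fell, and the median log2 fold change was 0.16. The share called was 36.7%, against 38.6% of all tested probe sets. By direction it was 30.0% higher and 6.67% lower, against 18.9% and 19.7% of all tested probe sets. The genes that rose were CTF8 (0.50) and ELG1 (0.26), of alternative clamp loaders, CDC8 (0.49), the thymidylate kinase that follows Cdc21 in the same pathway, the fork protection gene TOF1 (0.47) and RNH203 (0.44), a subunit of ribonuclease H2. TOP1 (0.37), a topoisomerase, DPB4 (0.27), the partner of Dpb3, and the chromatin assembly factor genes RLF2 (0.28) and MSI1 (0.27) rose as well. TAH11, which encodes Cdt1, the partner of MCM in loading, fell 1.57-fold and had 1118, 1012, 1131 and 1084 in CDC34tm, against 2108, 1522, 1427 and 1871 in WT. All CDC34tm cultures were lower (log2 fold change -0.65, limma adjusted p = 0.00239). MCM10, which acts in helicase activation, fell too (log2 fold change -0.29, limma adjusted p = 0.0419). Without single arrays of either strain TOF1, ELG1, RLF2, MSI1, TOP1 and MCM10 lost their calls, and DPB4, CTF8, RNH203, CDC8 and TAH11 did not.

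Genes whose products work together did not always share a direction. DPB3 and DPB4, which form a dimer in polymerase ε, rose by 0.34 and 0.27 on the log2 scale. Cdc6 and Cdt1 act at the same loading step, and their genes differed in direction. CDC6 had 0.52, a call that was lost without single arrays, and TAH11 had -0.65. CTF18 and CTF8, of one loader, rose by 0.37 and 0.50, and the third gene of that loader, DCC1, had 0.17 and did not pass (limma adjusted p = 0.0721).

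Regulators of the G1/S transition were set beside them, since MBF and the related factor SBF act on many of them. Of 13, 9 rose (69.2%, against 18.9% of all tested probe sets) and 4 did not pass, and the median log2 fold change was 0.66. The S phase cyclin genes CLB5 and CLB6 rose by 0.90 and 0.97, more than any of the 44 replication genes. CLN2, a G1 cyclin gene, had 0.28 and did not pass (limma adjusted p = 0.123). On WT replicates 1 to 4 the median of the 13 relative to CDC34tm was -0.48, -0.66, -0.86 and -0.80, below 0 on every WT array, where that of the replication genes was 0.00 and -0.05 on WT replicates 1 and 4.

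Gene length and position were compared with the fold changes. Longer genes tended to have lower fold changes: Spearman's rho of coding length and log2 fold change was -0.249 across the 44 genes and -0.186 across all 5392 tested genes, and genes are not independent replicates. RFA3 is the shortest of the 44, at 369 bp. After a correction for coding length its log2 fold change was 0.68 in place of 0.82, and 13 replication genes rose and 3 fell. Adjacent genes did not always share a call. RFC5 and POL30 lie side by side and converge, with log2 fold changes of 0.058 and 0.49, and POL30 alone passed. RLF2, not among the 44, and MCM4 are adjacent in the same direction. RLF2 had 0.28, which passed, and MCM4 -0.092, which did not. POL2 and ORC5, also adjacent in the same direction, had -0.028 and -0.21. Neither passed and their 95% intervals overlapped, with opposite pairs of WT replicates highest. In ORC5 that order was a near tie, 896 on WT replicate 3 against 892 on WT replicate 1.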

How the data were processed

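The authors' deposited table holds linear array intensity values from MAS5, per the submitters' processing notes. Its version and scaling target, not given in the sources used here, could not be checked, but each array had a trimmed mean (2% at either end) of 1000. That scaling was kept, and it hides any shift in the mRNA content of a cell.

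Probe sets were named from the platform table, updating 12 symbols through RefSeq's gene table (R64), the source of coding lengths and gene order. Of 5498 S. cerevisiae probe sets, 5437 were tested, those above their array's 95th percentile of S. pombe probe sets on 4 or more of 8 arrays. The test was limma 3.58.1 (R 4.3.3, eBayes with trend, two-sided) on log2(signal + 16), adjusted by Benjamini-Hochberg across every probe set tested, at a threshold of 0.05. On simulated data it recovered 25 of 50 changes of 1.25-fold, 42 of 50 of 1.5-fold and 48 of 50 of 2-fold, with 9 false calls. The simulated noise was independent between arrays, so it did not hold the pairs of WT cultures. Changes were put into 50 of 5437 probe sets at each fold size, far fewer than were called in the data. The recovery and the false calls may therefore differ in the data. Fold changes of dim genes are understated on this scale, and 4 arrays per strain limit the precision.

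The members, lists and tests were chosen with earlier results of these data known. Signals per array are given for up to 3 called genes per complex with the smallest adjusted p and for the uncalled gene with the largest; all called genes of the wider list are named, and other genes given with values were chosen after these were seen. Alternatives were other pseudocounts, scalings, filters and probe set rules, eBayes without trend, a replicate block, a length correction and leaving out arrays. A planned promoter motif search was not run, since promoter sequence was not used here.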

Additional observations from a re-analysis of the deposited data

Results flagged for a closer look

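In 7 of 88 sets of 4 arrays (44 genes in 2 strains), 1 array stood far from the other 3, where chance gives about 5%. POL30 read 4115 on CDC34tm replicate 2, against 4483 to 4529 on the other CDC34tm arrays. POL2 read 1075 on CDC34tm replicate 2, against 1344 to 1368. ORC1 read 1797 on CDC34tm replicate 2, against 1532 to 1566. PSF3 read 1198 on CDC34tm replicate 2, against 1127 to 1138. MCM4 read 1894 on CDC34tm replicate 3, against 1780 to 1796. On WT replicate 1, RFC3 read 1759, against 1465 to 1496 on the other WT arrays, and DBF4 read 499, against 688 to 712.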

How the results depend on the processing

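With all 8 arrays, 11 replication genes rose and 2 fell. Pseudocounts of 1 and 64, the other filters, the mean over probe sets (each replication gene has 1 probe set, so this could not move a fold change) and eBayes without the trend changed no call among the 44. Leaving out 1 array gave 6 to 12 higher and 2 to 3 lower, a median of 0.057 to 0.13, and 4 to 9 higher and 1 to 2 lower among the 30 other genes. Over all tested probe sets these fits gave 756 to 1055 higher and 833 to 1064 lower. The lowest count of higher genes, 6, came without CDC34tm replicate 1, and 7 came without CDC34tm replicate 4, among the other genes 4 and 5, with 5 also without CDC34tm replicates 2 or 3. The median of 0.057 came without WT replicate 3. Without WT replicates 1 and 4 there were 18 higher and 4 lower (median 0.18), and without WT replicates 2 and 3 there were 5 lower (median 0.035). Centring gave a median of 0.16 and 14 other genes higher. The other genes lower fell to 1 under quantile normalization, centring, the length correction and the replicate block. With the replicate block 10 replication genes rose and 3 fell: ORC4 and ORC6 lost their calls, MCM7 and ORC1 gained them. Same-numbered arrays correlated in their deviations at 0.04, 0.23, -0.08 and 0.06, so the numbers were not taken to pair the cultures. PRI1, RAD27 and PSF3 gained calls under quantile normalization and centring, ORC1 under centring and the length correction, and PRI1 and PSF1 under the length correction. Without WT replicate 1, POL12, RFC3, RAD27 and MCM7 gained calls, without WT replicate 2, POL31 and ORC1, and without WT replicate 4, PRI1, RAD27 and MCM7.

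Changes of sign were met only in genes that did not pass with all arrays. Under quantile normalization POL2 became 0.020, RFC4 0.0020, CDC9 0.030 and SLD3 0.00038, and under centring POL2 0.021, RFC4 0.0025 and CDC9 0.038. After the length correction CDC9 became 0.042 and SLD3 0.0063. Without WT replicates 1 and 4, POL2 became 0.19, DPB2 0.17, RFC1 -0.078, RFC4 0.028, CDC9 0.41 and DBF4 -0.12. Without WT replicates 2 and 3, POL1 became -0.099, POL12 -0.024, PRI2 -0.058, RFA1 -0.031, RFA2 -0.094, CTF4 -0.22, CDC21 -0.19 and SLD3 0.10. Leaving out 1 array, the range crossed 0 for POL2 (-0.13 to 0.055), RFC1 (-0.031 to 0.032), CTF4 (-0.088 to 0.10), CDC9 (-0.20 to 0.16), SLD3 (-0.12 to 0.014) and DBF4 (-0.11 to 0.053). The causes were not tested.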
